A study of Mus musculus with 3 samples.

Results

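The cartilage collagens are the 8 genes Col2a1, Col9a1, Col9a2, Col9a3, Col10a1, Col11a1, Col11a2 and Col27a1, taken as every probe set of the array that the platform annotation assigns to 1 of these symbols and no other. They were read by 13 probe sets and make up 8 of the 18193 genes measured. The samples were bone-derived cells of C57BL/6 mice, labelled endosteal: femur and tibia fragments were digested with collagenase, cells carrying CD45, CD31 or Ter119 were removed, and the rest was sorted on PDGFRa and Sca-1. The 3 sorted fractions, PDGFRa- Sca-1-, PDGFRa+ Sca-1- and PDGFRa+ Sca-1+, were hybridised to 1 array each, after amplification and biotin labelling by the array maker's two-cycle method. The labels name no treatment, genotype or age and do not say how many mice were pooled. With 1 array per population no difference below has a replicate check, and no test was possible.

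Collagens are proteins of 3 chains wound into a triple helix. In hyaline cartilage, type II collagen (Col2a1) forms the bulk of the fibrils, type XI collagen (Col11a1, Col11a2 and a Col2a1-derived chain) is built into them and limits their width, and type IX collagen (Col9a1, Col9a2, Col9a3) sits on their surface and links them to other matrix molecules. Type XXVII collagen (Col27a1) is a further fibrillar collagen of cartilage, and type X collagen (Col10a1) forms a network around the hypertrophic chondrocytes of the growth plate, the enlarged cells next to mineralising matrix. In long bones these genes are best known from growth plate and articular cartilage, and not from the bone-lining cells of the endosteum.

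The cartilage collagens were bright in both Sca-1- populations and lower by at least 2-fold in PDGFRa+ Sca-1+ cells for 8 of 8 genes. From PDGFRa- Sca-1- to PDGFRa+ Sca-1- cells, 7 of 8 stayed within 2-fold and 1, Col10a1, was 4.80-fold higher. The difference between PDGFRa+ Sca-1+ and PDGFRa+ Sca-1- cells ran from 6.49-fold lower for Col2a1 to 97.4-fold lower for Col9a2. Signals are the deposited linear intensities after a common scaling. A floor of 93.2, the mean of the array medians, stood in for detection calls, and each gene was represented by the probe set that was brightest on average over the arrays, on the log2 scale. Signals of 30000 and more lie close to the top of the range, where saturation compresses differences, and 5 of the 13 probe sets reached that level on at least 1 Sca-1- array. In RNA from sorted bulk cells, fewer cells of a type and less RNA per cell cannot be told apart.

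The arrays as a whole differed in ways that touch these values. Pdgfra was 586 in PDGFRa- Sca-1-, 2420 in PDGFRa+ Sca-1- and 12846 in PDGFRa+ Sca-1+ cells, in the order of the labels for the first pair. Ptprc and Pecam1, which encode CD45 and CD31, were under the floor on the 3 arrays. The signal ratio between the 3' and 5' control probe sets of Actb was 2.99, 2.63 and 4.65 in the same order, so the 3' end was most favoured on the PDGFRa+ Sca-1+ array, and its part in the lower collagen signals there was not tested. Probe sets of 1 gene were the only repeated measurement. Their log2 ratios scattered with an SD of 0.37 for PDGFRa+ Sca-1- over PDGFRa- Sca-1-, 0.60 for PDGFRa+ Sca-1+ over PDGFRa+ Sca-1- and 0.50 for PDGFRa+ Sca-1+ over PDGFRa- Sca-1- cells. It says nothing of the variation between mice or between arrays.

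Upstream windows were set side by side for Col10a1, the gene that differed between the Sca-1- populations, and for Col9a2 and Col11a2, which joined it with the largest differences at the Sca-1 step. Each window holds the 250 bases before a RefSeq transcript start on assembly GRCm38.p6, plus strand, 5' to 3': chr10:34389731-34389980 for Col10a1, chr4:121039316-121039565 for Col9a2 and chr17:34038888-34039137 for Col11a2. Capitals mark any match, on either strand, to the motifs searched. These were the core letters bound by SOX factors, AACAAT, those bound by RUNX factors in a first form, TGTGGT, and in a second form, TGCGGT, the TATA box written as TATAAA and the SP1 box written as GGGCGG.
Col10a1: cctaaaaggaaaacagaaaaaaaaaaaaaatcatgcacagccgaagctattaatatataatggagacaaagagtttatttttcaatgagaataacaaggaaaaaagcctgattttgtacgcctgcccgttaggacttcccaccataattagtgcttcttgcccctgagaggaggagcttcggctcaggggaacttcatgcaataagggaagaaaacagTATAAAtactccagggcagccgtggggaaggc
Col9a2: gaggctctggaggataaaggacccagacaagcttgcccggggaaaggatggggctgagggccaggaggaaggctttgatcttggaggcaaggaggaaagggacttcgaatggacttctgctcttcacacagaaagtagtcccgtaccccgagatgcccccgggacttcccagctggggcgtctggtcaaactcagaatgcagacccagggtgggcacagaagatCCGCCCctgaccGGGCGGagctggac
Col11a2: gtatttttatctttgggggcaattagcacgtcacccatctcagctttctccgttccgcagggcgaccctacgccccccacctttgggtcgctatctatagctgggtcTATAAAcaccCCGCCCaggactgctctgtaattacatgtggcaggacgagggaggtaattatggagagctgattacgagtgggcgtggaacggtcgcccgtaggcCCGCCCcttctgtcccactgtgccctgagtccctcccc
The Col10a1 window held a TATA box from 32 to 27 bases before the start and no SP1 box, and its GC content was 41.6%. The Col9a2 window held 2 SP1 boxes within its last 26 bases and no TATA box, at a GC content of 60.4%. The Col11a2 window held both, with the TATA box farther out, from 143 to 138 bases before the start, at a GC content of 57.6%. RefSeq windows were matched for 6 of the 8 genes, 7 windows in all, because Col9a1 had 2 starts. Col2a1 and Col9a3 had no window, so their upstream sequence was not searched. TATAAA was in 2 of these 7 windows against 12.4% of 32851 windows of the same length over all genes, and GGGCGG in 4 of 7 against 32.7%. No window of a cartilage collagen held the SOX core, found in 9.42% of all windows, or the RUNX core, found in 14.0% as TGTGGT and in 5.10% as TGCGGT. Such matches describe letters in these windows and not sites in use.

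**Figure D1:**
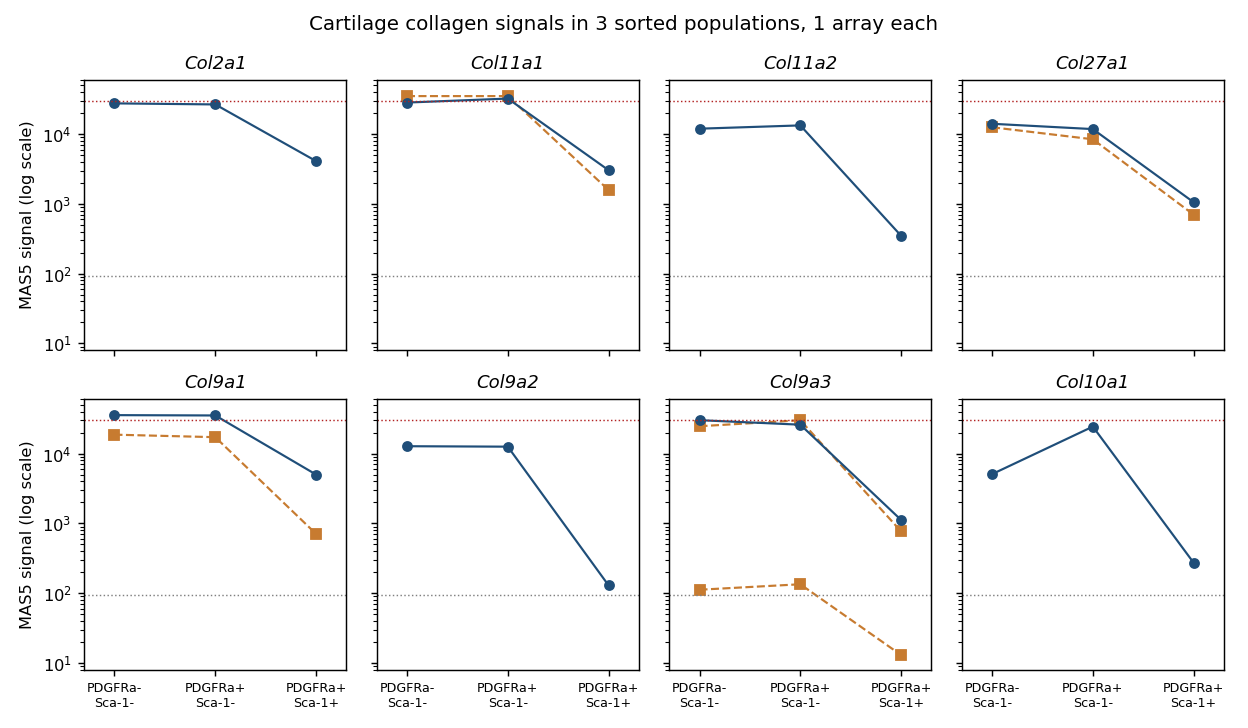
MAS5 signal (log axis) of each cartilage collagen probe set on the array of each of the 3 populations; blue circles with solid lines are the probe set used as the gene value, orange squares with dashed lines the gene's other probe sets, the lower dotted line the floor of 93.2 and the upper one 30000. Every line drops at the PDGFRa+ Sca-1+ array, and Col10a1 is the gene whose Sca-1- signals differ by more than 2-fold.

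Among the fibrillar chains, Col2a1 gave a signal of 27518 in PDGFRa- Sca-1-, 26563 in PDGFRa+ Sca-1- and 4096 in PDGFRa+ Sca-1+ cells. The Sca-1- signals were alike and just under 30000, and the PDGFRa+ Sca-1+ signal was 6.49-fold lower than that of PDGFRa+ Sca-1- cells. This was the smallest difference among the 8 genes, but signals this close to 30000 can be compressed, and no other probe set read Col2a1. In PDGFRa+ Sca-1+ cells Col2a1 was still far above the floor.

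Col11a1, which encodes the first chain of type XI collagen, was read by 2 probe sets. The one with the higher mean log2 signal gave 28256, 32231 and 3031 in PDGFRa- Sca-1-, PDGFRa+ Sca-1- and PDGFRa+ Sca-1+ cells, 10.6-fold lower at the last step. The other gave 34969, 34978 and 1573, which was 22.2-fold lower. Both probe sets passed 30000 in at least 1 Sca-1- population, so neither ratio has an exact size, and they differed by 1.06 on the log2 scale.

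Col11a2 encodes the second chain of type XI collagen, and its signals of 11935, 13301 and 348 stayed well below 30000. It was the fibrillar gene with the largest difference, 38.2-fold lower in PDGFRa+ Sca-1+ than in PDGFRa+ Sca-1- cells.

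Col27a1 also stayed below 30000, and its probe sets gave like pictures. One gave 14037, 11776 and 1053, or 11.2-fold lower at the Sca-1 step, and the other 12509, 8412 and 699, or 12.0-fold lower. They differed by 0.11 on the log2 scale, well under the scatter between probe sets.

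The fibril-associated type IX genes covered nearly the whole range of differences among themselves. Col9a2 was 12746 in PDGFRa- Sca-1-, 12559 in PDGFRa+ Sca-1- and 129 in PDGFRa+ Sca-1+ cells. The Sca-1- populations were thus alike, and the PDGFRa+ Sca-1+ signal lay close to the floor. Against PDGFRa- Sca-1- cells the Col9a2 signal was 98.8-fold lower in PDGFRa+ Sca-1+ cells, and 0 of the 11843 genes compared had a lower ratio. Against PDGFRa+ Sca-1- cells it was 97.4-fold lower, with 4 of 11855 genes lower still.

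Col9a1 had 2 probe sets that disagreed in size. The brighter one, at 35540, 35155 and 5001, was above 30000 in both Sca-1- populations and 7.03-fold lower in PDGFRa+ Sca-1+ than in PDGFRa+ Sca-1- cells. The other, at 18658, 17173 and 706, stayed below 30000 and was 24.3-fold lower. Their log2 ratios differed by 1.79, more than the scatter of 0.60 between probe sets of 1 gene.

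Col9a3 had 3 probe sets. The one used as the gene value gave 30088, 25930 and 1118, or 23.2-fold lower in PDGFRa+ Sca-1+ than in PDGFRa+ Sca-1- cells, and a second gave 24639, 30031 and 767, or 39.2-fold lower. The remaining one, whose suffix _x_at marks probes that can read other transcripts, gave 112, 134 and 13.0. It was near or under the floor throughout, and its bound of at least 1.44-fold lower fell within 2-fold. The chains of type IX collagen are made as one trimer in cartilage, yet signals of different probe sets cannot be set against each other, so the arrays give no ratio between the chains.

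Col10a1, the network-forming collagen of hypertrophic chondrocytes, was the one gene whose Sca-1- signals parted. It was 5071 in PDGFRa- Sca-1-, 24355 in PDGFRa+ Sca-1- and 272 in PDGFRa+ Sca-1+ cells, so its highest signal was in PDGFRa+ Sca-1- cells, below 30000. It was 4.80-fold higher in PDGFRa+ Sca-1- than in PDGFRa- Sca-1- cells, a log2 ratio of 2.26 against a probe set SD of 0.37, and 68 of 11675 genes had a higher ratio. It was then 89.4-fold lower in PDGFRa+ Sca-1+ than in PDGFRa+ Sca-1- cells, with 5 of 11855 genes lower, and 18.6-fold lower than in PDGFRa- Sca-1- cells. A single probe set read Col10a1, so no other probe set bears on these values.

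**Figure D2:**
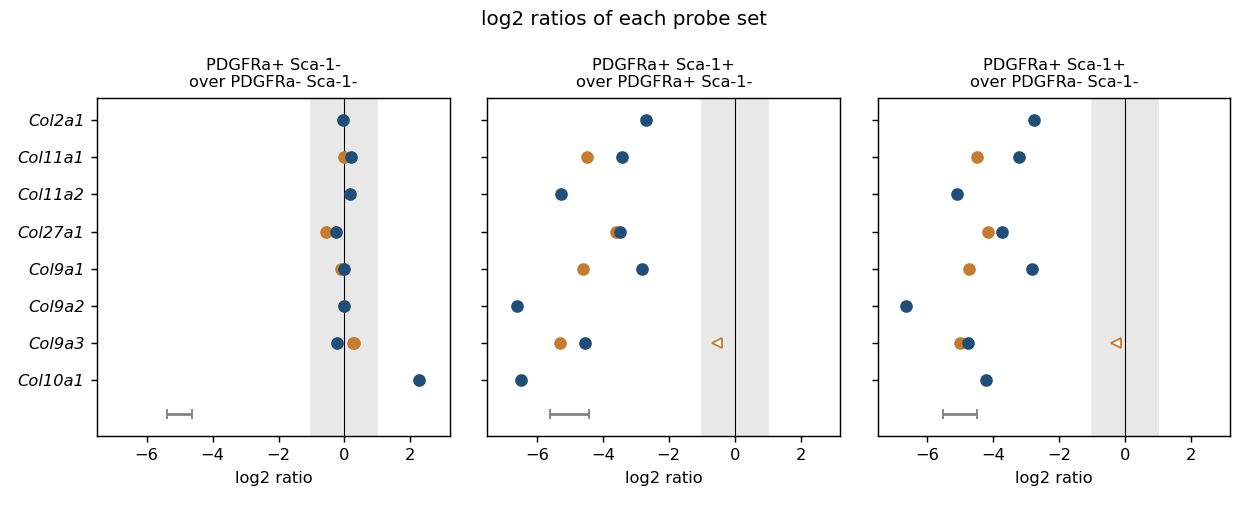
log2 ratio of each probe set (x axis) for each cartilage collagen in the 3 comparisons named above the panels; blue marks the gene value, orange the other probe sets, an open triangle a bound, the shaded band a ratio within 2-fold, and the grey bar at the bottom 1 SD to each side of the scatter between probe sets of 1 gene (0.37, 0.60 and 0.50). The Col10a1 point at 2.26 stands apart in the first panel, and the 8 gene values lie from -2.70 to -6.61 in the second.

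The comparison of PDGFRa+ Sca-1+ with PDGFRa+ Sca-1- cells asked what goes with Sca-1 among PDGFRa+ cells. All 8 cartilage collagens were lower by at least 2-fold in PDGFRa+ Sca-1+ cells, where 11.3% of the 11855 genes compared were. Their median log2 ratio was -4.01, a 16.1-fold difference, beside 0.07 over all genes. Of the 13 probe sets 12 were lower, among them 7 of the 8 that stayed below 30000 on the 3 arrays, and the exception was the dim Col9a3 probe set. With genes read only by probe sets below 30000 the median over 7 genes was -4.60, a 24.3-fold difference; Col11a1 then had no value, and Col9a3 rested on its dim probe set, at -0.53, and lost its call.

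In order of their ratio, Col9a2 (log2 ratio -6.61) and Col10a1 (-6.48) came first and were 0.12 apart, less than the scatter of 0.60 between probe sets. Col11a2 (-5.25) lay 1.23 above Col10a1, Col9a3 (-4.54) 0.72 above Col11a2, and Col27a1 (-3.48) 1.05 above Col9a3. Col27a1, Col11a1 (-3.41), Col9a1 (-2.81) and Col2a1 (-2.70) followed in steps of 0.07, 0.60 and 0.12. The step of 0.60 equalled the scatter as rounded, and the others were under it. Saturated probe sets stand behind Col11a1, Col9a1 and Col9a3, and the other Col9a1 probe set, at -4.60, would place it next to Col9a3. The only Col2a1 probe set lay just under 30000 in both Sca-1- populations, so its last place is uncertain.

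The comparison of PDGFRa+ Sca-1- with PDGFRa- Sca-1- cells asked what goes with PDGFRa among Sca-1- cells. Here 1 of 8 genes, Col10a1, was higher by at least 2-fold, where 4.82% of the 11675 genes compared were higher and 10.4% differed in either direction. None was lower, against 5.63% of all genes, and the median log2 ratio was -0.02 beside -0.03 over all genes. Without Col10a1 the log2 ratios ran from -0.25 for Col27a1 to 0.19 for Col11a1, with no neighbouring values further apart than 0.17. For Col9a2, Col11a2 and Col27a1 both Sca-1- signals lay well under 30000, and these 3 were within 2-fold as well. Both Col9a1 signals of its brighter probe set, and the higher of the Col11a1 and Col9a3 signals, were above 30000. Col10a1 lay 2.07 above Col11a1 on the log2 scale.

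Set across both markers at once, 8 of 8 genes were lower by at least 2-fold in PDGFRa+ Sca-1+ than in PDGFRa- Sca-1- cells, where 12.2% of the 11843 genes compared were. The median log2 ratio was -3.98 beside 0.03 over all genes. This comparison shares its arrays with both others, so it adds no separate evidence. The order changed in 1 respect. Col10a1, at -4.22, moved from the second place to the fourth, behind Col9a2 (-6.63), Col11a2 (-5.10) and Col9a3 (-4.75).

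Markers of the cell types that the sort could hold were read next to the collagens. Of 11 chondrocyte markers that are not collagens, 11 were above the floor on the 3 arrays, and their summed signal was 213692 in PDGFRa- Sca-1-, 212331 in PDGFRa+ Sca-1- and 21373 in PDGFRa+ Sca-1+ cells. All 11 were lower by at least 2-fold in PDGFRa+ Sca-1+ than in PDGFRa+ Sca-1- cells, where 11.3% of all genes were. The median log2 ratio of the 11 was -4.49, and Chad, a leucine-rich cartilage protein, passed the threshold only just, at 2.00-fold. Between the Sca-1- populations 9 of the 11 were within 2-fold, Matn1 was higher and Ucma lower in PDGFRa+ Sca-1- cells. The chondrocyte markers thus moved with the collagens, and their part in the collagen differences was not tested. The label calls the cells endosteal, and these signals show cartilage transcripts in all 3 fractions.

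Of 11 osteoblast and osteocyte markers 8 had a usable probe set, and 6, 6 and 5 were above the floor in PDGFRa- Sca-1-, PDGFRa+ Sca-1- and PDGFRa+ Sca-1+ cells. Mepe and Sost, of osteocytes, were under it on the 3 arrays. Their summed signal was 24454, 74669 and 3908. Like Col10a1 it was highest in PDGFRa+ Sca-1- cells. There 3 of 6 markers compared, Alpl, Phex and Dmp1, were at least 2-fold higher than in PDGFRa- Sca-1- cells, beside 4.82% of all genes. At the Sca-1 step all 6 compared were at least 2-fold lower in PDGFRa+ Sca-1+ cells, where 11.3% of all genes were. The median log2 ratio of the 6 was -4.62 at that step. Alpl, alkaline phosphatase, and Ibsp, bone sialoprotein, are made by hypertrophic chondrocytes as well as by osteoblasts. The part of the osteoblast markers in the Col10a1 difference and in the lower collagen signals of PDGFRa+ Sca-1+ cells was not tested.

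Of 9 markers of adventitial fibroblasts 8 were measured, and 3, 5 and 8 were above the floor in PDGFRa- Sca-1-, PDGFRa+ Sca-1- and PDGFRa+ Sca-1+ cells, with summed signals of 1024, 3780 and 81092. Pi16, Cd248 and Clec3b were under the floor in both Sca-1- populations. These markers ran opposite to the collagens. At the Sca-1 step 8 of 8 were at least 2-fold higher in PDGFRa+ Sca-1+ cells, where 14.9% of all genes were. The part of these markers in the lower collagen signals there was not tested. The 6 genes of synovium and the articular surface were above the floor on the 3 arrays, with summed signals of 100252, 55001 and 101637. Against PDGFRa+ Sca-1- cells 3 of 6 were at least 2-fold higher in PDGFRa+ Sca-1+ cells and 0 lower. Of all genes compared 14.9% were higher. Among the 3 was Prg4, the lubricin of joint surfaces, at 28140 against 13077. Against PDGFRa- Sca-1- cells 1 of 6, Cilp2, was lower in PDGFRa+ Sca-1+ cells, at 465 against 1206, and 0 were higher.

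Blood and endothelial markers had low signals, some of them above the floor. Of 8 neutrophil precursor markers 2, 8 and 8 were above it, with summed signals of 631, 3115 and 2748 and a highest single signal of 712. Of 5 measured erythroid markers 3, 4 and 0 were above it, with summed signals of 762, 500.3 and 247. Of 6 endothelial markers 1, 2 and 2 were above it, summing to 659, 890 and 1192, with Pecam1, Cdh5 and Emcn under it on the 3 arrays, and of 5 general blood markers 1 was above it on each array, Laptm5, summing to 317, 386 and 364. Against PDGFRa- Sca-1- cells, 6 of the 8 neutrophil precursor markers were at least 2-fold higher in PDGFRa+ Sca-1- cells and 6 in PDGFRa+ Sca-1+ cells. Of all genes compared, 4.82% and 14.5% were higher in these comparisons. The part of neutrophil precursor cells in the collagen values was not tested.

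**Figure D3:**
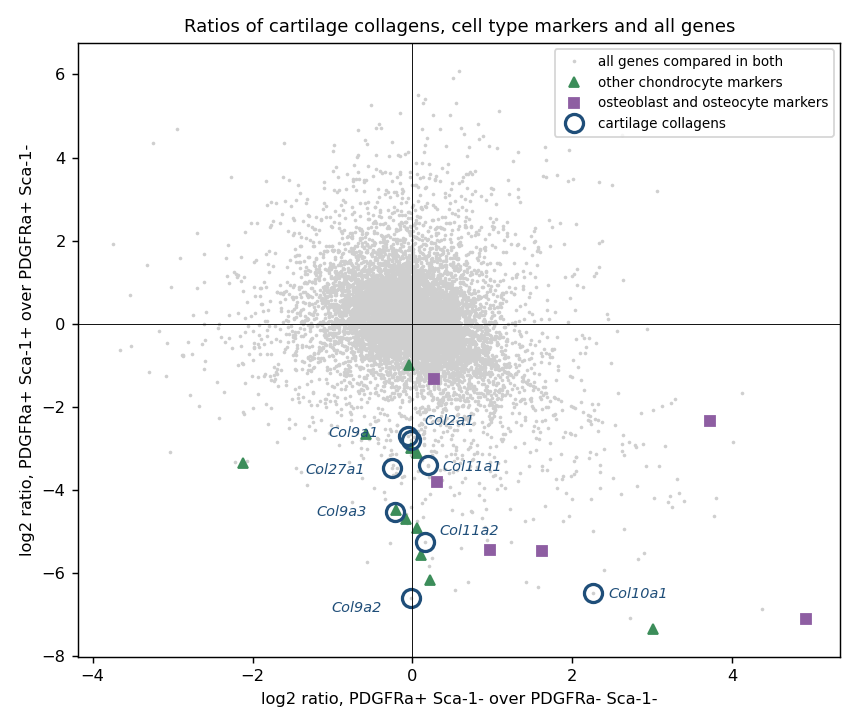
log2 ratio of PDGFRa+ Sca-1- over PDGFRa- Sca-1- cells (x axis) against that of PDGFRa+ Sca-1+ over PDGFRa+ Sca-1- cells (y axis) for the genes compared in both (grey), the 8 cartilage collagens (blue circles), other chondrocyte markers (green) and osteoblast and osteocyte markers (purple). The axes share the PDGFRa+ Sca-1- array, so an error there moves a point along both. The other 7 collagens sit near 0 on the x axis, and Col10a1 lies at 2.26 and -6.48.

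Genes whose pair of log2 ratios lay nearest to that of a collagen were named over the 3 arrays by the straight-line distance on these axes, among 5123 other genes above the floor on all 3 with a highest signal from 1000 to 30000. Nearest to Col9a2 were Mia (distance 0.49), Panx3 (0.58) and Prkg2 (0.81), and nearest to Col11a2 were Snorc (0.32), Matn3 (0.34) and Susd5 (0.40). Col2a1 was followed by S100a1 (0.05), Itga10 (0.08) and Rras2 (0.11), and Col27a1 by Flvcr2 (0.06), Il11 (0.08) and Wwp2 (0.13). No neighbours are given for Col9a1, Col9a3 and Col11a1, whose gene values rest on signals above 30000 and whose other probe sets lie elsewhere on these axes. Col10a1 had no close neighbour, with F5 (0.71), Car3 (0.76) and Loxl4 (0.99) the nearest. The arrays give each gene only a pair of ratios, so many genes lie close by in the dense part of the range.

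The proteins that join collagen fibrils in cartilage were mostly lower with the collagens. Of 16 fibril partners 11 were lower by at least 2-fold in PDGFRa+ Sca-1+ than in PDGFRa+ Sca-1- cells, 1 was higher and 4 were neither. Over all genes compared 11.3% were lower and 14.9% higher. The median log2 ratio of the partners was -3.17. Apart from Chadl, the lower ones are also chondrocyte markers counted above, so the counts of these lists are not separate observations. Among the partners outside the marker list, Chadl was lower, Matn2 higher and the rest neither. Matn1, a matrilin that bridges fibrils, was 2331, 18704 and 115 in PDGFRa- Sca-1-, PDGFRa+ Sca-1- and PDGFRa+ Sca-1+ cells, a pattern with its peak in the same population as Col10a1. Mia, a secreted cartilage protein, was 18566, 21522 and 297, and Snorc, a chondrocyte surface proteoglycan, 24513, 26358 and 553. Matn3, another matrilin, was 20991, 21846 and 719, so Mia, Snorc and Matn3 were within 2-fold between the Sca-1- populations, as the fibrillar and type IX genes were. Ucma, of early growth plate chondrocytes, was 15138, 3482 and 341 and had its highest signal in PDGFRa- Sca-1- cells. Comp, which binds collagen fibrils in cartilage, tendon and synovium, was 29358, 28927 and 25256, within 2-fold throughout near the top of the range. Matn2, a matrilin of many tissues, was 2.18-fold higher in PDGFRa+ Sca-1+ cells, at 3482 against 1594.

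The transcriptional regulators known to act on cartilage collagen genes were lower for 8 of 15 genes compared, higher for 2 and neither for 5. In PDGFRa+ Sca-1+ against PDGFRa+ Sca-1- cells, 11.3% of all genes compared were lower and 14.9% higher. The median log2 ratio of the list was -1.34, and its Sox9 is also a chondrocyte marker counted above. Sox9, the main activator of Col2a1, Col9a1 and Col11a2, was 6285, 6522 and 754, 8.65-fold lower in PDGFRa+ Sca-1+ than in PDGFRa+ Sca-1- cells, or 4.53-fold by the mean over its probe sets. Between the Sca-1- populations its brightest probe set was flat, with a log2 ratio of 0.05, but another gave 1.85. Mef2c, which drives hypertrophy and Col10a1, was 2943, 8184 and 966, highest in PDGFRa+ Sca-1- cells like Col10a1. The forkhead factors Foxa2 and Foxa3, also of hypertrophic chondrocytes, were 336, 1079 and 14.1, and 1492, 2794 and 44.6. Both were under the floor in PDGFRa+ Sca-1+ cells, and Foxa2 was at least 11.6-fold lower there than in PDGFRa+ Sca-1- cells, or at least 4.22-fold with the floor at the 67th percentile. Sox5, a partner of Sox9, was 2161, 542 and 482, 3.99-fold lower in PDGFRa+ Sca-1- than in PDGFRa- Sca-1- cells, but 1.71-fold by the mean over its probe sets. In the other direction, Arid5b, a coregulator of Sox9, was 5.02-fold higher in PDGFRa+ Sca-1+ than in PDGFRa+ Sca-1- cells, and Hdac4, which restrains Mef2c, 2.29-fold higher. By the mean over their probe sets these were 2.49-fold and 1.51-fold. Runx2 had no usable probe set and is not analysed here.

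Growth plate signalling genes went several ways, with 4 of 12 lower in PDGFRa+ Sca-1+ than in PDGFRa+ Sca-1- cells, 2 higher and 6 neither. Over all genes compared 11.3% were lower and 14.9% higher. The median log2 ratio of the list was -0.18. Pth1r, the parathyroid hormone receptor, was 25.5-fold lower, at 840 against 21462. Fgfr3, a receptor that slows chondrocyte division, was 15.4-fold lower by its brightest probe set, with a log2 ratio of -1.59 by the one at the other end and a 6.81-fold difference by their mean. Ihh, the hedgehog ligand of prehypertrophic chondrocytes, was 171, 795 and 76.8, and Bmp6, a growth factor of hypertrophic cartilage, 947, 5401 and 411. Both had their peak in PDGFRa+ Sca-1- cells, as Col10a1 did, and were 4.64-fold and 5.70-fold higher there than in PDGFRa- Sca-1- cells. Gli2, a transcription factor of hedgehog signalling, ran the other way at 1434, 408 and 1105, and Gli1, a hedgehog target, at 276, 86.3 and 241 was under the floor in PDGFRa+ Sca-1- cells. By the mean over its probe sets Gli2 was 1.87-fold higher at the Sca-1 step, and with a floor at the 67th percentile Gli1 was 1.08-fold lower in PDGFRa+ Sca-1- than in PDGFRa- Sca-1- cells.

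Of 21 enzymes and chaperones that fold and export collagen in any collagen-secreting cell, 5 were lower, 2 higher and 14 neither at the Sca-1 step, where 26.2% of all genes differed in either direction. Their median log2 ratio was -0.26. Between the Sca-1- populations 3 were lower in PDGFRa+ Sca-1- cells and 18 neither, with a median of -0.39. The lower ones included P3h2, a prolyl hydroxylase, at 4.73-fold, Plod2, a lysyl hydroxylase of the chain ends, at 3.35-fold and P3h4, a cofactor of lysyl hydroxylation, at 2.98-fold. P4ha3, a catalytic subunit of the enzyme that makes 4-hydroxyproline, was higher, at 775 against 96.9 just above the floor, or 3.03-fold with the floor at the 67th percentile, and P3h3 2.12-fold higher. Creb3l2, a transcription factor for the secretory machinery of chondrocytes, was 2.84-fold lower in PDGFRa+ Sca-1- than in PDGFRa- Sca-1- cells.

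Genes that trim and cross-link collagen divided, with 3 of 8 lower in PDGFRa+ Sca-1+ than in PDGFRa+ Sca-1- cells, 2 higher and 3 neither. Among all genes compared 11.3% were lower and 14.9% higher. Over the list the median log2 ratio was -0.57. Loxl4, a lysyl oxidase relative, was 1209, 8576 and 168, with its peak in PDGFRa+ Sca-1- cells. Loxl1, of the same family, was 749, 673 and 11009.6, highest where the cartilage collagens were lowest, and 9.47-fold higher at the Sca-1 step by the mean over its probe sets. Adamts3, which removes the amino-terminal propeptide of procollagens, was 4.95-fold lower at the Sca-1 step by its brightest probe set, but another gave a log2 ratio of -0.05, and their mean was 2.27-fold lower. Pcolce, an enhancer of procollagen trimming, was 2.39-fold higher, and Lox was 4.89-fold higher in PDGFRa+ Sca-1- than in PDGFRa- Sca-1- cells, or 2.78-fold by the mean over its probe sets.

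The collagen breakdown list also holds the inhibitors Timp1, Timp2 and Timp3 and enzymes that cut a proteoglycan, so its counts mix opposite functions. Of 10 genes compared, 7 were higher in PDGFRa+ Sca-1+ than in PDGFRa+ Sca-1- cells, where 14.9% of all genes were, and 3 lower. The median log2 ratio of the list was 1.27. Mmp13, the collagenase that cuts type II collagen, was an exception at 2224, 8225 and 650.2, with the same order of populations as Col10a1 and a 12.7-fold lower signal at the Sca-1 step. Adamts4 and Adamts5, which cut the proteoglycan aggrecan, were higher at 1077 against 239 and 4614 against 1153, the latter 2.33-fold by the mean over its probe sets, and the inhibitor Timp2 was 3.85-fold higher. Timp1 was 3.32-fold lower. Timp3 was 2.04-fold lower, or 1.89-fold after quantile normalization, 1.86-fold with arrays set to a common median and 3.84-fold by the mean over its probe sets.

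Of 5 collagen receptor genes compared, 1 was higher, 2 lower and 2 neither at the Sca-1 step. Among all genes compared 14.9% were higher and 11.3% lower. The list's median log2 ratio was -0.67. Itga10, the integrin chain through which chondrocytes bind type II collagen, was 2445, 2478 and 374, a 6.63-fold lower signal. Itga1, of another collagen-binding integrin, was 359, 1178 and 160, 7.35-fold lower at the Sca-1 step. The difference was 4.60-fold with the floor at the 67th percentile and 2.71-fold by the mean over its probe sets, where a probe set under the floor on the 3 arrays counts as no difference. By that mean Itga1 was 1.81-fold higher in PDGFRa+ Sca-1- than in PDGFRa- Sca-1- cells, within 2-fold. Ddr2, a receptor kinase for fibrillar collagens, was 4.33-fold higher in PDGFRa+ Sca-1+ cells, at 12123 against 2797.

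The fibrillar collagens of bone and connective tissue parted from those of cartilage. Of 7 genes, 4 were within 2-fold between PDGFRa+ Sca-1+ and PDGFRa+ Sca-1- cells, 2 higher and 1 lower. The median log2 ratio was -0.01 beside -4.01 for the cartilage collagens. That median is the value of Col1a2, at 29086, 28482 and 28323. These signals lay near the top of the range, where saturation compresses differences, so the size of the median is uncertain. Col3a1, also counted within 2-fold, reached 35974 in PDGFRa+ Sca-1+ cells. Its other probe set gave a log2 ratio of 3.08 at the Sca-1 step against 0.67. Col1a1, of type I collagen, was 7476, 25131 and 14417, within 2-fold at the Sca-1 step by this probe set. Its other probe set gave a log2 ratio of -1.70, and by the mean over both Col1a1 was 2.38-fold lower. Col5a2, of type V, was 16188, 26426 and 23165. Col5a1 was 2.11-fold and Col5a3 11.6-fold higher in PDGFRa+ Sca-1+ cells, the latter 3.40-fold by the mean with a second probe set that was under the floor on the 3 arrays. The lower one was Col24a1, a rare collagen of bone, at 298, 1176 and 17.4. These lists were chosen with results in view and got no test, so the difference between them is given as values only.

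**Figure D4:**
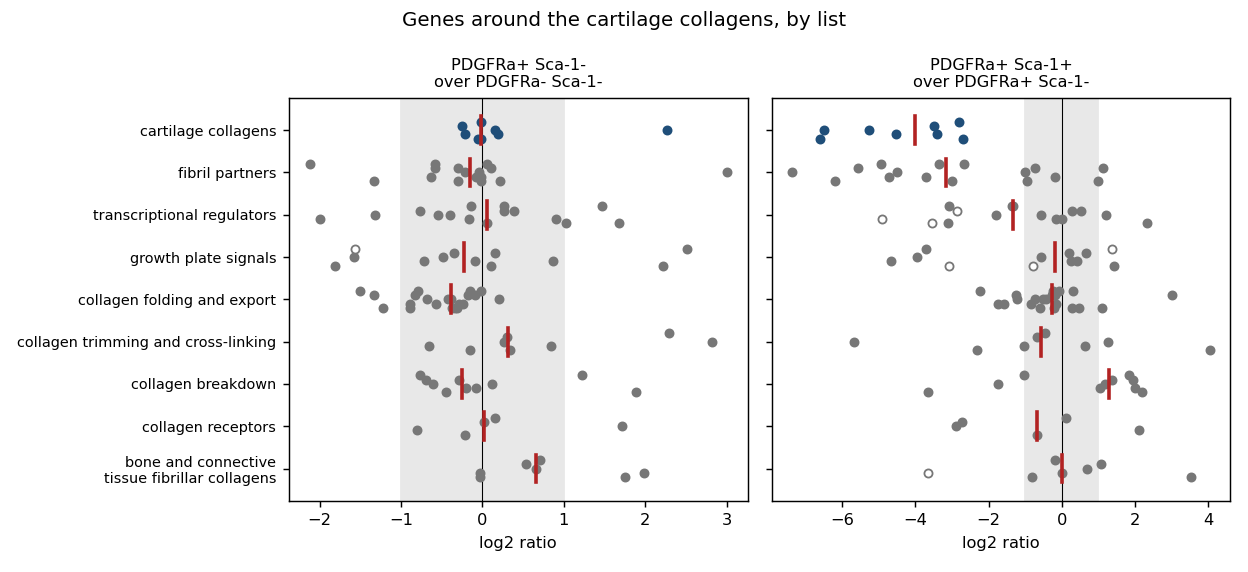
log2 ratio of each gene (points; open where only a bound) and the median of each list (red bar) for the cartilage collagens and 8 lists of related genes, for PDGFRa+ Sca-1- over PDGFRa- Sca-1- cells at the left and PDGFRa+ Sca-1+ over PDGFRa+ Sca-1- cells at the right; the shaded band is a ratio within 2-fold, and the vertical spread of points has no meaning. At the right the cartilage collagens have a median of -4.01, fibril partners -3.17 and the bone and connective tissue fibrillar collagens -0.01. The last is the value of Col1a2, whose signals lie near the top of the range.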

How the data were processed

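RNA of 3 sorted populations was read on 1 expression array each. The authors deposited linear intensities, 1 per probe set, made with MAS5 per the submitters' processing notes. Its version and any detection calls or filters: not given in the sources used here. The 2% trimmed mean was 500.0 on each deposited array, so the arrays had been scaled before deposit.

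Without the 64 control probe sets, the arrays were rescaled to 1 common 2% trimmed mean, values below the floor were replaced by it and log2 ratios were taken (Python 3.11.15, pandas 2.3.3, NumPy 2.4.6). Symbols came from the platform annotation: 34945 probe sets had 1 symbol, 932 had several and were left out, and 34741 were matched to RefSeq GRCm38.p6, used for names, with 0 changed. A gene under the floor on 1 array of a pair gives a bound (at least), and a gene under it on both was not compared. A ratio of 2 or more was called higher or lower. The call was run on simulated data with an assumed noise, where recovery was required only of changes larger than 2-fold. That run does not measure the error of a 2-fold call on these arrays. The number of arrays limits the precision. Genes and lists were chosen with earlier results of these data known. Named genes were all 8 collagens and, per list, up to 4 with the largest ratio at the Sca-1 step, up to 2 at the PDGFRa step and up to 2 within 2-fold or opposite; markers could all be named. Chadl, Col1a2 and Col3a1 were named besides these, to show what the counts and medians of their lists rest on. The planned protein features were not computed.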

Additional observations from a re-analysis of the deposited data

How the results depend on the processing

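The counts of cartilage collagens higher or lower and their median log2 ratios were recomputed with the floor at the 33rd or 67th percentile, with log2(signal + 50) and no floor, with signals as deposited, after quantile normalization, with a common median, with the mean over probe sets, without _x_at and _s_at probe sets, with the brightest probe set below 30000 and, for the counts, with a 3-fold threshold. The counts stayed within 1.5 times the values given, and the medians moved by less than the scatter between probe sets. The median ran from -4.60 to -3.83 for PDGFRa+ Sca-1+ over PDGFRa+ Sca-1- cells, from -4.22 to -3.83 for PDGFRa+ Sca-1+ over PDGFRa- Sca-1- cells and from -0.04 to 0.04 for PDGFRa+ Sca-1- over PDGFRa- Sca-1- cells. Of 213 values of single collagens under these alternatives, 201 moved by less than that scatter, 12 by more and 0 changed the sign of a called ratio. Many of the 201 could not move. For Col2a1, Col10a1 and Col11a2, each read by 1 probe set, both other floors and every choice of probe set returned the same value. Leaving out _x_at and _s_at probe sets changed no collagen value. The count of 201 is thus no measure of how firm the ratios are. The 12 that moved by more were of Col9a1, Col9a3 and Col11a1 with another choice of probe set, and of Col9a2 with the floor at the 67th percentile. There Col9a2 was at least 49.1-fold lower in PDGFRa+ Sca-1+ than in PDGFRa+ Sca-1- cells. The common median raised the median of all genes from 0.07 to 0.19 in that comparison. No paired analysis was possible because each population had 1 array. Signal near the floor limits Col9a2 in PDGFRa+ Sca-1+ cells, and saturation limits Col11a1, Col9a1 and Col9a3 in Sca-1- cells. Col2a1, just under 30000 in Sca-1- cells, can be compressed as well.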
